A study of Mus musculus with 37 samples.

Results

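Mest, Sfrp5, Bmp3, Nnat and Npr3 are 5 genes known for their link to the growth of fat cells and fat depots, and their expression is described here in brown adipose tissue (BAT), together with that of Lep. The members were taken by gene symbol, and where a gene had several probe sets on the array the one with the highest mean over the BXD strains stood for it. All 5 were found, among 24657 different gene symbols in the table. The mice were chow-fed males, fasted overnight and sacrificed at 29 weeks of age according to the labels. They came from 35 strains of the BXD family, inbred lines whose genomes are mosaics of C57BL/6J and DBA/2J, and from these 2 parents. RNA of about 5 mice per strain was pooled in even amounts and measured on 1 Affymetrix array, so each value is a strain mean with no replicate within the strain, and p-values rest on the spread between strains alone.

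Leptin, encoded by Lep, is secreted by fat cells in proportion to the fat they store, and it reports energy stores to the brain. Mest encodes a protein of the alpha/beta hydrolase fold in the endoplasmic reticulum of fat cells, is transcribed from the paternal allele only, and is known for its rise in fat tissue that is expanding. Sfrp5 is a secreted decoy that binds Wnt ligands, Bmp3 is a secreted member of the bone morphogenetic protein family that opposes signalling by other members, Nnat is a paternally expressed membrane proteolipid, and Npr3 is the clearance receptor that removes natriuretic peptides, which otherwise drive lipolysis through the receptor Npr1.

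Start regions of Lep, Npr3 and Mest, which had the highest correlations with each other across strains, are shown so that their sequence can be set side by side. Each is the 300 bases from 250 before to 50 after a RefSeq start site in the build GRCm38.p6, written from 5′ to 3′ on the strand of the gene. Entries were found for Lep, Mest, Sfrp5, Nnat and Npr3. Capitals mark a GC box (GGGCGG), a pair of C/EBP half-sites (TTNNGCAA), a CCAAT box (CCAAT) or an E-box (CACGTG), each searched on both strands, or a TATA box (TATAAA) on the strand of the gene. No exact TATA box, held by 8.32% of all start regions, and no E-box, held by 7.15%, matched in these windows. Only the letters given were sought, so variants such as tataag, present in the Lep and Mest windows shown, are not marked. The matches shown do not overlap each other.
Lep, chr6:29059971-29060270, plus strand: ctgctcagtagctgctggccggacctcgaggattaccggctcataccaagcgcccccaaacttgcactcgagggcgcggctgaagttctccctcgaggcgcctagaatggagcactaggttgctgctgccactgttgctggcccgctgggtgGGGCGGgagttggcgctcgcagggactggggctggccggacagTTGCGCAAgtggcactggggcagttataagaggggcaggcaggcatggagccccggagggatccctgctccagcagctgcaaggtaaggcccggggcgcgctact
Mest, the second of 3 start sites, chr6:30737800-30738099, plus strand: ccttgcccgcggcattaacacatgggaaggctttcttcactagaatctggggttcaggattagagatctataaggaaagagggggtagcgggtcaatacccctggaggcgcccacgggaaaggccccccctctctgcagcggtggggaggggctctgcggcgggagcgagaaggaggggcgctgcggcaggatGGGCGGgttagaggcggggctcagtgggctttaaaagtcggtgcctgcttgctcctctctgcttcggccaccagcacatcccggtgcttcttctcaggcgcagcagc
Npr3, chr15:11907322-11907621, minus strand: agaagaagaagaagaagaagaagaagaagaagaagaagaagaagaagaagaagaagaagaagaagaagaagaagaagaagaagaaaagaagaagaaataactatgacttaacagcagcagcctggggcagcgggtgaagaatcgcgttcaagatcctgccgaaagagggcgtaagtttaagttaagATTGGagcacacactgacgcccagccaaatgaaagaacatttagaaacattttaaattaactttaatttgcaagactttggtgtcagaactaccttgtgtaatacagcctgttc
The windows shown for the 3 genes shared no motif of this set. Lep held a GC box, found in 35.7% of 32851 RefSeq start regions of this length, and a C/EBP pair, found in 10.8%. The Mest window shown held a GC box, and Npr3 held a CCAAT box, found in 37.4%. The windows held 19 CpG sites in Lep, 17 in Mest and 6 in Npr3, against a median of 7 over all start regions. For Mest these values depend on the start site. The third lies 3 bases after the second, with 17 CpG sites and a GC box too, whereas the first held 8 CpG sites, a GC box and, like Lep, a C/EBP pair. The second was picked for display after the sequences were seen, and which start is used in this tissue was not analysed here. A motif match describes letters and was not tested as a binding site.

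Mest also hosts a microRNA, miR-335, in one of its introns. Its 5p arm is shown because its gene has a probe set of its own, with the seed (bases 2 to 8) in capitals, from chr6:30741314-30741336 on the plus strand of GRCm38.p6.
miR-335-5p: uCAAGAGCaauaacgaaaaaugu
The probe set listed under Mir335 stood at 6.74 ± 0.34 rescaled units (SD, n = 35 strains), and none of the 35 strains reached the background level defined in the next paragraph. Its Pearson correlation with Mest was -0.17 (limma adjusted p = 0.707), on values at background. Such a probe set does not read the mature microRNA.

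Levels are given in rescaled units, since the authors set the mean over probe sets to 8 on every array and the standard deviation to 2. One unit would be a doubling only if the values before that step were log2 values with a standard deviation of 2, so folds are nominal. Background was set by the 1128 probe sets of olfactory receptors, assumed to be mostly silent in fat, which was not tested. Their 95th percentile was 7.94 units. Tissue identity was clear: Ucp1, the uncoupling protein of brown fat, ranged from 14.82 to 15.69 units over the strains. Transcripts of other tissues varied more. The mean of 12 skeletal muscle genes ran from 10.11 in BXD65 to 13.66 units in BXD97, and that of 8 liver genes from 6.72 to 12.05 units, the highest in BXD70. Arrays correlated with each other at r from 0.968 to 0.987.

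Lep itself had one of the widest ranges in the tissue. It was lowest in BXD43 at 9.08 units, had a median of 11.20 and was highest in BXD61 at 13.38. The range of 4.30 units, nominally 19.7-fold, was wider than that of 99.7% of the 19436 probe sets above background, whose median range was 0.83 units.

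Mest followed with a range of 3.26 units, nominally 9.57-fold, from 8.11 in BXD45 over a median of 9.45 to 11.37 in BXD97. BXD96 at 11.10 and BXD61 at 10.87 came next to BXD97. Every BXD strain lay above background, and 28 of 35 also lay above the 99th percentile of the olfactory receptors (8.82 units).

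Nnat ranged over 3.18 units, from 9.49 in BXD43 over a median of 11.08 to 12.68 in BXD61, so that the same strains ended its scale as ended that of Lep. This held for the probe set used: the other probe set of Nnat ranged over 1.68 units, from 7.78 in BXD45 to 9.46 in BXD103, and the mean of both over 2.09. Npr3 varied over 2.16 units, from 11.59 in BXD43 over a median of 12.69 to 13.74 in BXD61. Its largest gap between neighbouring strains, 0.255 units, separated 22 strains up to BXD70 from 13 strains between 13.21 and 13.74. Those 13 strains were also the 13 with the highest Lep, a comparison chosen after the values were seen. For Mest, 12 of its 13 highest strains were among these, for Sfrp5 11, for Nnat 10 and for Bmp3 7.

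Sfrp5 and Bmp3 lay near background. Sfrp5 ranged from 7.83 in BXD90 over a median of 8.63 to 10.18 in BXD96, a span of 2.35 units. BXD96 and BXD61, at 10.03, stood apart from the other strains, the next being BXD69 at 9.46. For Sfrp5, 33 of 35 strains exceeded the 95th percentile of background and 13 the 99th. Bmp3 had the narrowest range, 1.18 units, from 8.19 in BXD43 over a median of 8.58 to 9.37 in BXD61. All 35 strains exceeded the 95th percentile for Bmp3 and 9 the 99th. The range of Bmp3 was wider than that of 74.9% of the probe sets above background, against 95.6% for Npr3, 96.6% for Sfrp5, 98.7% for Nnat and 99.02% for Mest. Levels of different probe sets cannot be ranked against each other as transcript amounts.

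**Figure D1:**
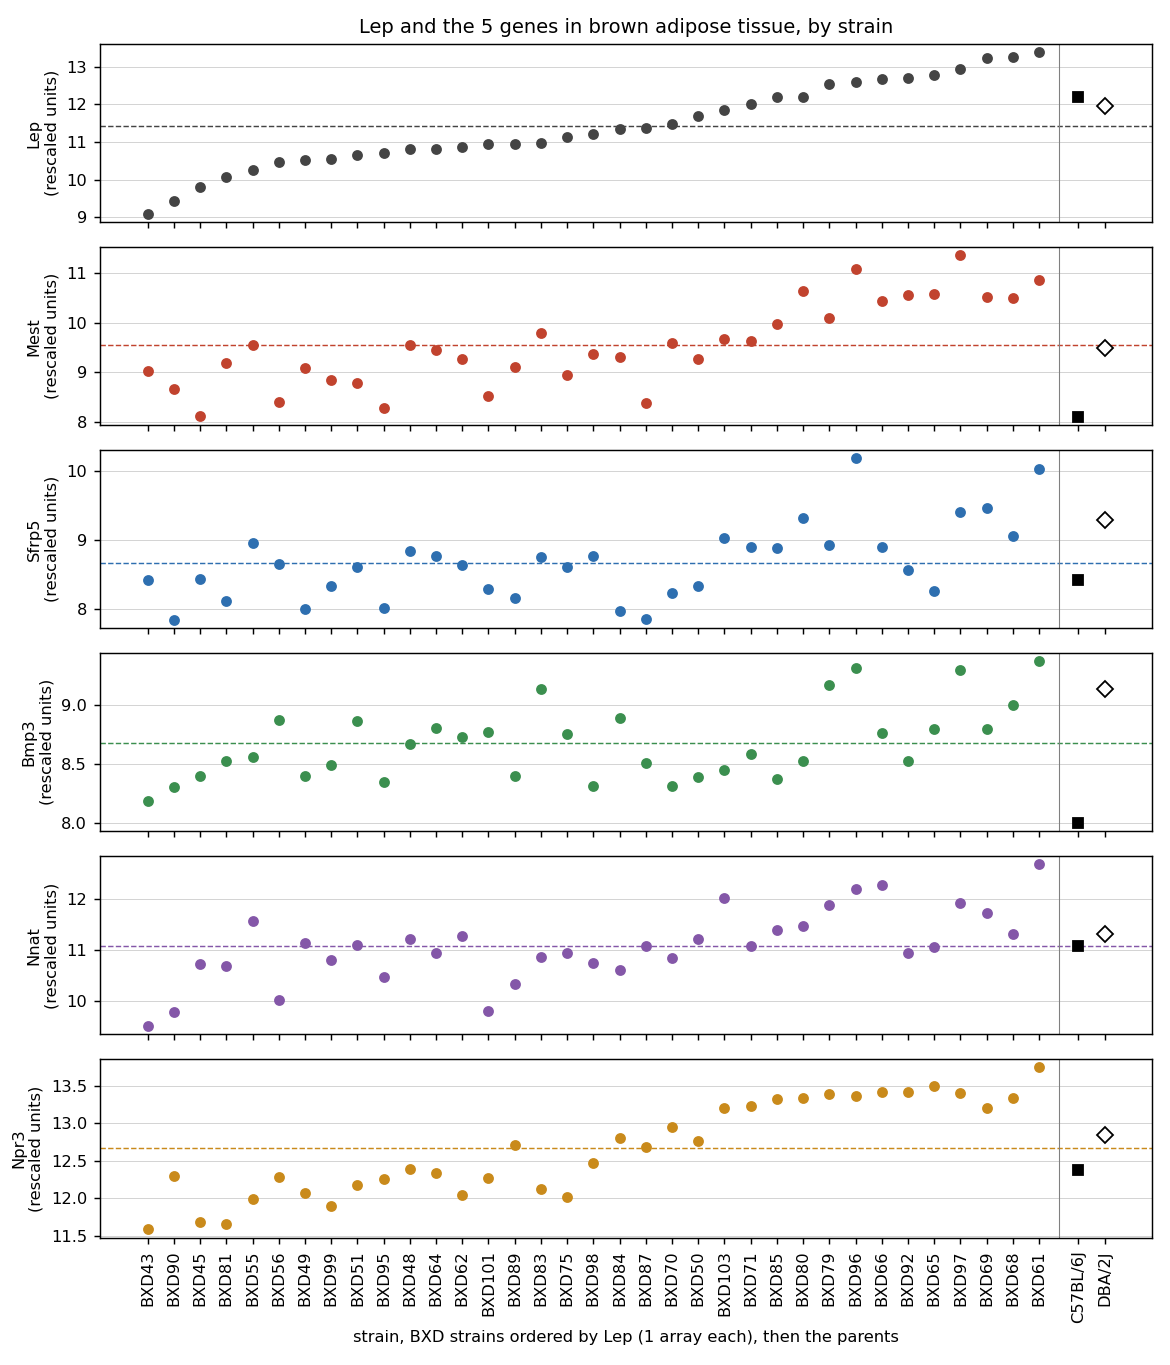
Levels of Lep and the 5 genes in rescaled units (vertical axes, each with its own scale) for the 35 BXD strains, ordered along the horizontal axis by Lep, and for C57BL/6J (square) and DBA/2J (diamond). Each point is 1 array and dashed lines are means over the BXD strains. Mest and Npr3 climb with Lep, and the 13 strains on the right all exceed 13.2 units of Npr3.

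The strains with the highest values recurred from gene to gene. BXD61 and BXD97 were among the 5 highest strains of all 5 members, and BXD96 of at least 4. At the low end no strain was among the 10 lowest of all 5 members. BXD43 was among the 5 lowest for 3 of them, Bmp3, Nnat and Npr3, and at 9.03 units of Mest and 8.42 of Sfrp5 it lay within the body of the strains. BXD90 was likewise among the 5 lowest for 3, Sfrp5, Bmp3 and Nnat. At 9.43 units of Lep, only BXD43 lay below BXD90.

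The parents lay far apart for Mest, Bmp3 and Sfrp5 and closer for Lep. Lep was 12.18 units in C57BL/6J and 11.94 in DBA/2J. Mest was 8.09 in C57BL/6J, below every BXD strain, and 9.498 in DBA/2J. Bmp3 was likewise below every BXD strain in C57BL/6J, at 8.001, and 9.135 in DBA/2J. Sfrp5 was 8.42 and 9.28 in the same order. The differences of 1.41 units for Mest, 1.13 for Bmp3 and 0.86 for Sfrp5 exceeded the 95th percentile of the absolute parental difference over all probe sets, 0.77 units. Those of Npr3, 0.465 units (12.38 and 12.84), and of Nnat, 0.229 units (11.08 and 11.305), did not. With 1 array per parent there is no replicate and no test. The array of DBA/2J also had a mean of 10.22 units over the liver genes, against 7.17 in C57BL/6J, and of 9.92 over macrophage genes, against 8.95. The part of these lists in the parental differences was not tested.

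The question put to the strains was whether the 5 genes vary together and with Lep. The members were chosen with earlier results of these data known, so the p-values below describe the relations and are no independent test. All 5 rose with Lep across the 35 BXD strains (limma with Lep as a covariate, Benjamini-Hochberg over 41154 transcripts, threshold 0.05). Over all of them, 2.38% of transcripts passed as higher with Lep and 2.50% as lower. Each relation below is given with Pearson's r, Spearman's rho and two-sided permutation p-values from 100000 permutations, whose smallest possible value is 1e-05. They belong to a family of 15, the 5 with Lep and 10 between members.

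Npr3 had the highest r with Lep of all 41154 transcripts, 0.92, and increased by 0.52 ± 0.0368 units (SE) per unit of Lep (adjusted p = 1.0e-11). Its rho was 0.91, and both permutation p-values were the smallest possible. Mest ranked 13th with r = 0.83 and a slope of 0.63 ± 0.0715 (adjusted p = 7.36e-07). Its rho was 0.82, again with both permutation p-values at the smallest value.

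Nnat ranked 74th with r = 0.74 and a slope of 0.47 ± 0.0714 (adjusted p = 5.62e-05), and its rho was 0.67 (permutation p = 1e-05 for r and 5.0e-05 for rho). Sfrp5 ranked 314th with r = 0.62 and a slope of 0.31 ± 0.0648 (adjusted p = 0.00286), and its rho was 0.56 (permutation p = 3.0e-05 and 0.00053). Bmp3 ranked 600th with r = 0.56 and a slope of 0.16 ± 0.0395 (adjusted p = 0.0146), and its rho was 0.46 (permutation p = 0.00064 and 0.0054).

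Without BXD43 and BXD61, the strains farthest from the median of Lep, r was 0.91 for Npr3, 0.84 for Mest, 0.66 for Nnat, 0.59 for Sfrp5 and 0.44 for Bmp3. The adjusted p of Bmp3 was then 0.126, and without BXD61 alone it was 0.0536, so the call of Bmp3 with Lep rested on those strains.

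**Figure D2:**
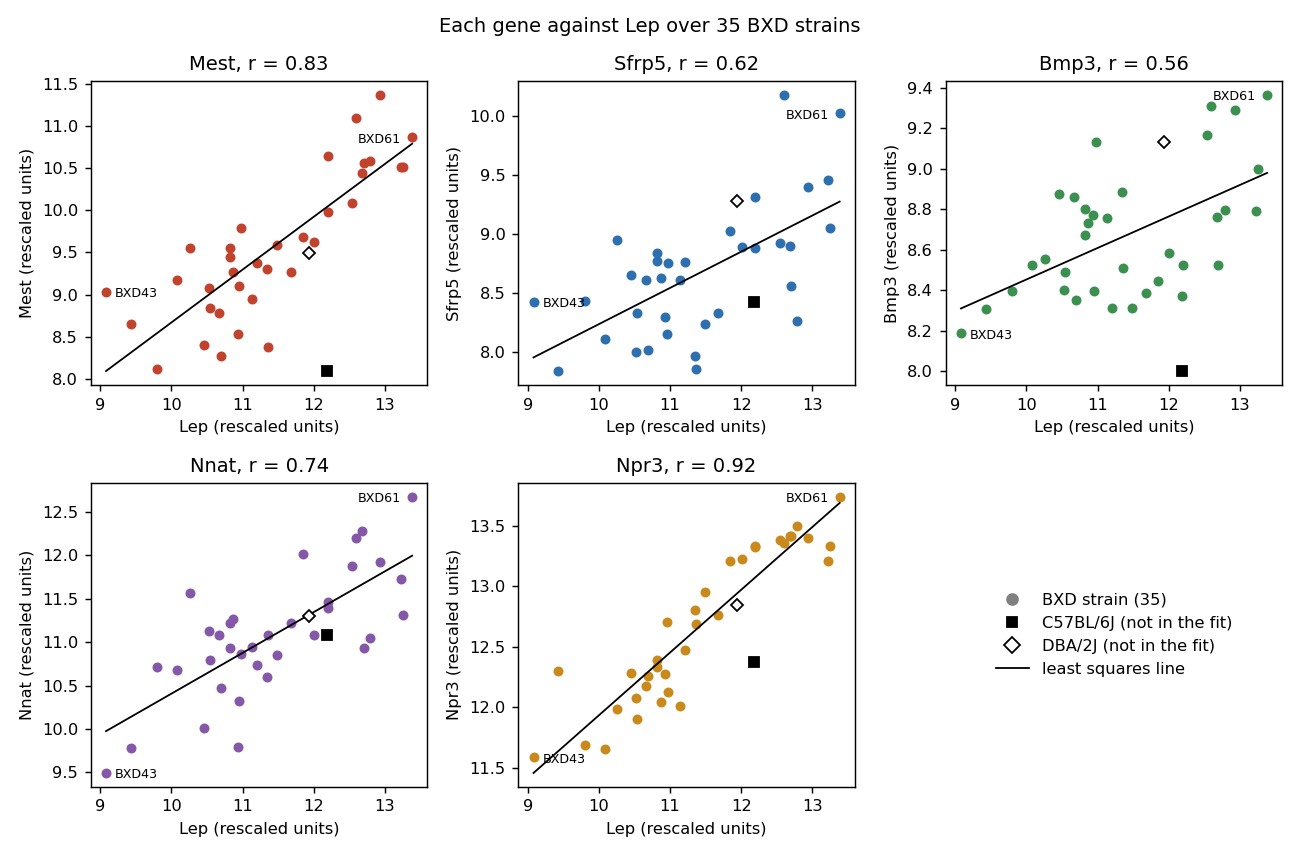
Each of the 5 genes (vertical axes, rescaled units) against Lep (horizontal axes, rescaled units) over 35 BXD strains, 1 point per array, with the least squares line and r over these strains. C57BL/6J (square) and DBA/2J (diamond) were not fitted, and C57BL/6J lies below the line in all 5 panels. The r is highest for Npr3, 0.92, and lowest for Bmp3, 0.56, and each vertical axis has its own scale.

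**Figure D3:**
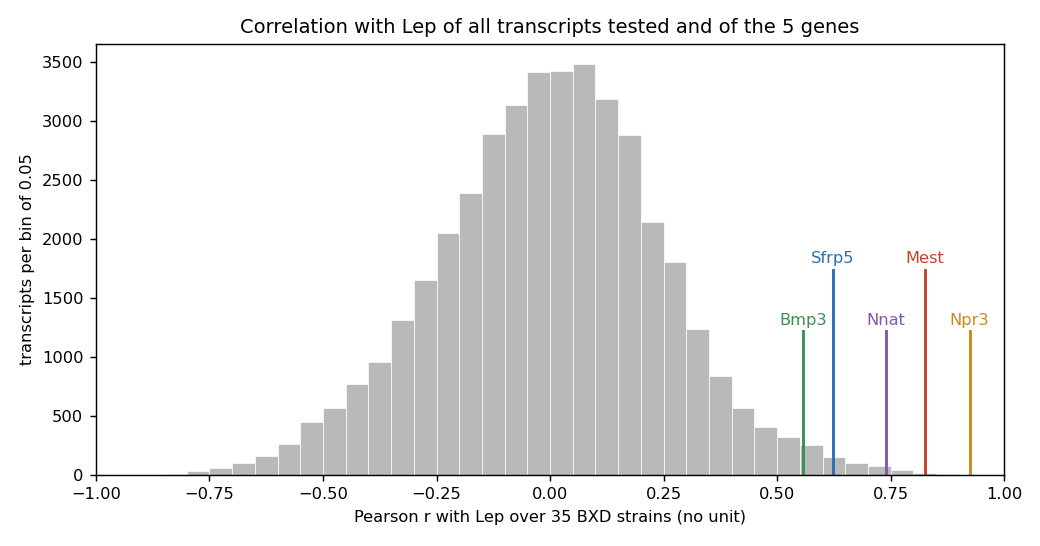
Number of transcripts (vertical axis) by their Pearson r with Lep over 35 BXD strains (horizontal axis, bins of 0.05), with vertical lines at the r of the 5 genes, whose heights carry no meaning. All 5 lie in the right tail, from 0.56 for Bmp3 to 0.92 for Npr3.

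Between members, 8 of the 10 pairs passed the same threshold, all with positive r. With the mean of 9 macrophage genes as a further covariate, described with the other cell types further on, none of the 10 passed in limma (7 at an unadjusted p under 0.05), and 2 of 5 members passed with Lep. For each pair the member that comes first in the order Mest, Sfrp5, Bmp3, Nnat, Npr3 was the covariate. As covariates, the shares of all transcripts that passed as higher and as lower were 2.19% and 2.31% for Mest, 0.627% and 0.411% for Sfrp5, 0.855% and 0.170% for Bmp3, 1.17% and 1.73% for Nnat, and 1.76% and 1.52% for Npr3. The r of the pairs ran from 0.42 to 0.79 with a median of 0.64.

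Mest had the 2 highest r of the set. Its r was 0.79 with Npr3 (rho 0.79, adjusted p = 1.15e-05), 0.75 with Sfrp5 (rho 0.72, adjusted p = 6.70e-05) and 0.72 with Nnat (rho 0.72, adjusted p = 0.000193), each with both permutation p-values at 1e-05, the smallest possible. With Bmp3 its r was 0.56 (rho 0.47, permutation p = 0.00049 and 0.00491, adjusted p = 0.0147). Leaving out the 2 strains farthest from the median of Mest, BXD96 and BXD97, gave r = 0.78, 0.68, 0.67 and 0.42 in the same order. The pair of Mest and Bmp3 no longer passed without them, or without BXD97 alone (r = 0.50, adjusted p = 0.0585).

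Sfrp5 and Nnat correlated at 0.73 (rho 0.76, permutation p = 2.0e-05 and 1e-05, adjusted p = 0.00139). Sfrp5 and Bmp3 correlated at 0.63 (rho 0.51, permutation p = 9.0e-05 and 0.00179, adjusted p = 0.0130). Sfrp5 and Npr3 correlated at 0.54 (rho 0.47, permutation p = 0.00059 and 0.00495, adjusted p = 0.0476), and this call was lost without any one of 20 of the 35 strains. It was also lost with median centring (adjusted p = 0.0592), with ranks of Sfrp5 (0.0753) and when the covariate added was the muscle mean (0.0504), the thermogenic mean (0.0799) or principal component 1 (0.113). Without BXD61 and BXD96, the farthest strains for Sfrp5, these r fell to 0.64, 0.45 and 0.45, and none of the 3 pairs passed, with an adjusted p of 0.0540 for Nnat, 0.243 for Bmp3 and 0.242 for Npr3.

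Nnat and Npr3 correlated at 0.65 (rho 0.58, permutation p = 3.0e-05 and 0.00042, adjusted p = 0.00384), and at 0.55 without BXD43 and BXD61. Bmp3 had the lowest r. Its r of 0.53 with Nnat (rho 0.44, permutation p = 0.00098 and 0.0088) missed the threshold with Bmp3 as the covariate (adjusted p = 0.0524) and passed with Nnat as the covariate (adjusted p = 0.0358). Its r of 0.42 with Npr3 (rho 0.38, permutation p = 0.0124 and 0.0256) passed neither way (adjusted p = 0.190 and 0.143). Without BXD61 and BXD96, the farthest for Bmp3, r was 0.37 with Nnat and 0.29 with Npr3.

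When Lep was added to the model, no pair passed in limma. The shares of all 41153 transcripts that passed beside Lep were 0.00729% for Mest, 0% for Sfrp5, 0.207% for Bmp3 and 0.00486% for Nnat. At an unadjusted p under 0.05 there were 3 of 10 pairs. The highest partial correlations were 0.52 for Mest with Sfrp5 (adjusted p = 0.248), 0.51 for Sfrp5 with Nnat (adjusted p = 0.207) and 0.44 for Sfrp5 with Bmp3 (adjusted p = 0.374), the 3 that fell under the unadjusted level. Mest with Npr3, the pair of highest r, had a partial r of 0.12. The median over the 10 pairs was 0.21, and the 3 pairs of Npr3 with Sfrp5, Nnat and Bmp3 had partial r of -0.11, -0.14 and -0.30. A pair that misses the threshold is not shown to be unrelated beside Lep.

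**Figure D4:**
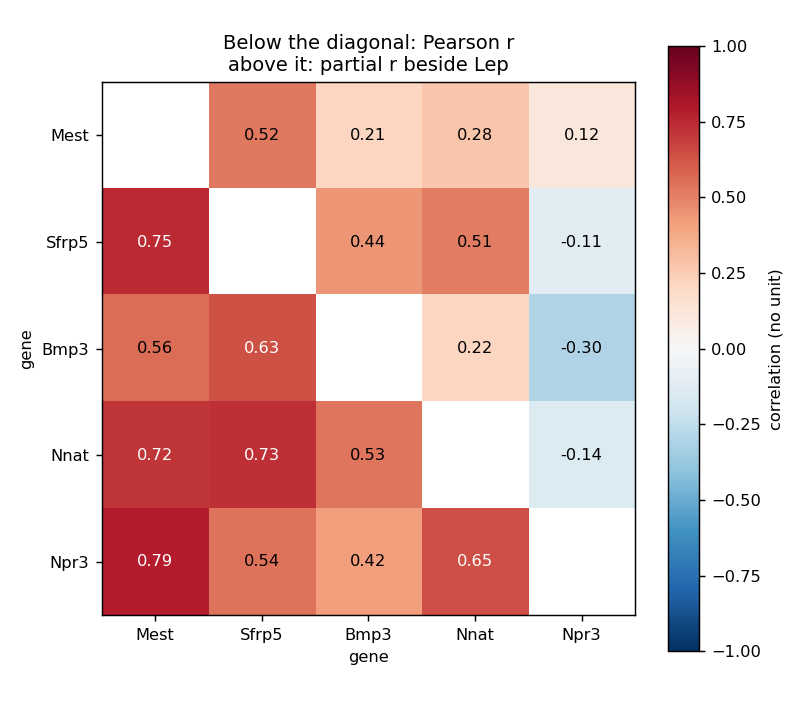
Correlations between the 5 genes over 35 BXD strains, Pearson r below the diagonal and partial r with Lep in the model above it (colour scale from -1 to 1, no unit). Below the diagonal all 10 values are positive, from 0.42 to 0.79. Above it they run from -0.30 for Bmp3 with Npr3 to 0.52 for Mest with Sfrp5.

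Each member was next set in its pathway, by lists of genes written with earlier results of these data known. Over all transcripts, 0.627% passed as higher with Sfrp5 and 0.411% as lower. Among 38 other Wnt pathway genes, 1 rose with Sfrp5 and none fell, with a median r of 0.13 against 0.00 over all transcripts. That gene was Fzd4, a Wnt and norrin receptor (r = 0.55, slope 0.23 ± 0.059, adjusted p = 0.0495). Fzd4 ranged from 12.43 to 13.17 units had r = 0.80 with Lep and 0.76 with Nnat, and rose with all members but Bmp3 (r = 0.34, below the threshold). The other secreted antagonists of the Wnt family, Sfrp1, Sfrp2, Sfrp4 and Frzb, had r with Sfrp5 of 0.42, 0.06, 0.06 and 0.25, and none passed. Sfrp2 rose with Bmp3 (r = 0.58, adjusted p = 0.022). With Lep, 2 of the 38 rose, Fzd4 and Ctnnb1, and none fell, beside 2.38% and 2.50% of all transcripts.

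With Bmp3 as the covariate, 0.855% of all transcripts rose and 0.170% fell. Among 34 other genes of the BMP pathway, 1 rose with Bmp3 and none fell (median r 0.15 against 0.00). It was Bmp7, a ligand known to promote brown fat formation, which ranged only from 8.28 to 8.99 units (r = 0.59, slope 0.31 ± 0.078, adjusted p = 0.038). The nearest relative of Bmp3 in sequence, Gdf10, had r = 0.27. More of this list passed with other members: 4 rose with Mest, 5 with Nnat and 3 with Npr3. The shares of all transcripts that rose with them were 2.19%, 1.17% and 1.76%. The 4 with Mest were Id3, a target of BMP signalling (r = 0.65, adjusted p = 0.0016), Acvr1b, a type I receptor for activins (r = 0.60), Inhbb, which encodes the beta subunit of activin B (r = 0.59), and Smad7, an inhibitory Smad (r = 0.59). Inhbb had its highest r with Npr3 (0.69, adjusted p = 0.0017). Zfp423, a regulator of the adipocyte lineage, rose with Nnat (r = 0.52, adjusted p = 0.047).

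Of 13 other genes of the natriuretic peptide pathway, Npr1, the signalling receptor, rose with Npr3 (r = 0.57, slope 0.19 ± 0.049, adjusted p = 0.019) and none fell (median r -0.01 against 0.00). Among all transcripts, 1.76% rose with Npr3 and 1.52% fell. Npr1 ranged from 9.70 to 10.59 units, and its r was 0.70 with Mest (adjusted p = 0.00069) and 0.59 with Lep (adjusted p = 0.0098), so both receptors were higher in the strains with more Lep. The ligands Nppa, Nppb and Nppc had r of 0.01, -0.03 and -0.15 with Npr3, on mean levels of 8.15, 8.04 and 8.12 units. Prkg1, the cGMP-dependent kinase downstream of Npr1, rose with Bmp3 (r = 0.57, adjusted p = 0.028) and Sfrp5 (r = 0.56, adjusted p = 0.042), with r = 0.13 for Npr3.

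Mest and Nnat are both imprinted. Of 28 other imprinted genes, 2 rose with Mest and 1 fell (median r 0.10 against -0.01), and none passed with Nnat (median r 0.16 against 0.01). Beside them, 2.19% of all transcripts rose with Mest and 2.31% fell, and 1.17% and 1.73% did so with Nnat. Grb10, an adaptor that restrains insulin signalling (r = 0.57, adjusted p = 0.017), and Meg3, a maternally expressed non-coding RNA (r = 0.53, adjusted p = 0.027), rose with Mest, and Mcts2 fell (r = -0.59, adjusted p = 0.0155). The genes of the same imprinted domains did not pass: Copg2, which overlaps the 3′ end of Mest, had r = -0.20 with Mest, Klf14 had r = 0.16, and Blcap, the gene in whose intron Nnat lies, had r = 0.33 with Nnat. The second probe set of Nnat, at 8.77 ± 0.37 units (SD, n = 35), correlated with the one used at 0.55 (adjusted p = 0.026), with Lep at 0.57 and with Mest at 0.62.

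The neighbours of the members on their chromosomes were examined after the values had been seen. Of the 3 protein-coding genes on either side of each member in the RefSeq order of GRCm38.p6, 28 of 30 were measured and 2 passed. These were neighbours of Sfrp5 and Bmp3, with which 0.627% and 0.855% of all transcripts passed as higher. Crtac1, which encodes a secreted matrix protein and lies 2 genes from Sfrp5 on chromosome 19, had the highest r with Sfrp5 of all 41154 transcripts (0.80, slope 0.51 ± 0.066, adjusted p = 0.00015). Crtac1 lay about background, from 7.20 to 8.88 units, and Golga7b, which lies between them and whose mean was below background, had r = -0.04. Prdm8, 3 genes from Bmp3 on chromosome 5, had r = 0.59 with Bmp3 (adjusted p = 0.025). Lep and Mest lie on the same chromosome, 6, with 30 protein-coding genes between them. Of these, all measured and 18 with a mean above background, 3 passed with Lep and none with Mest. With Lep, Prrt4 (r = 0.50) and Irf5 (r = 0.52, mean 7.80 units, below background) rose, and Impdh1 (r = -0.48) fell. The shares of all transcripts were 2.38% higher and 2.50% lower with Lep, and 2.19% and 2.31% with Mest. The median r over the 30 was 0.05 with Lep and 0.01 with Mest. Strain genotypes were not analysed here.

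The fat lists were set against Mest and Lep. Shares of all transcripts that rose ran from 0.627% with Sfrp5 to 2.38% with Lep. Of 6 genes of caveolae, the pits in the surface of fat cells, all 6 rose with Mest (median r 0.65), 5 with Lep (0.78), 5 with Npr3 (0.77), 5 with Nnat (0.65), 3 with Sfrp5 (0.54) and 1 with Bmp3 (0.35). Cav1, the main coat protein of caveolae, had r = 0.79 with Npr3 (adjusted p = 0.00033), and Prkcdbp, also known as Cavin3, had r = 0.82 with Mest (adjusted p = 2.9e-06) and 0.68 with Bmp3.

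Of 22 genes of lipid storage and synthesis, 1 rose with Mest and 4 fell (median r -0.24 against -0.01). Among all transcripts, 2.19% rose with Mest and 2.31% fell. Plin4, a lipid droplet coat protein, rose (r = 0.75, slope 0.18 ± 0.028, adjusted p = 0.00015). Elovl6, a fatty acid elongase (r = -0.73, slope -0.42 ± 0.066, adjusted p = 0.00015), Acacb (r = -0.63) and Acaca (r = -0.48), the acetyl-CoA carboxylases, and Thrsp (r = -0.54), a lipogenic regulator, fell. With Lep, Plin4 rose and Elovl6 (r = -0.61) and Acacb (r = -0.59) fell, beside 2.38% and 2.50% of all transcripts. Of 15 adipogenic transcription factors none passed with Mest, Lep, Sfrp5, Bmp3 or Npr3, where the list medians of r were -0.20, -0.14, -0.12, -0.11 and -0.19, and Ebf1 rose with Nnat (r = 0.54). Among all transcripts, 1.17% rose with Nnat and 1.73% fell.

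Of 13 genes of leptin biology and white fat, Retn, which encodes the adipokine resistin, was lower in strains with more Mest (r = -0.57, slope -0.45 ± 0.11, adjusted p = 0.010), Lep (r = -0.57) and Npr3 (r = -0.60). Nnmt, with a mean of 7.90 units below background, rose with Mest (r = 0.49) and Sfrp5 (r = 0.55). Adipoq, which encodes adiponectin, had r of -0.15 with Mest and -0.27 with Lep and did not pass. Of 11 thermogenic genes, Cidea (r = -0.66, slope -0.08 ± 0.020, adjusted p = 0.0083) and Elovl3 (r = -0.55, adjusted p = 0.013) fell with Mest, and Cidea also fell with Lep, Npr3 and Sfrp5. For both lists, the shares of all transcripts with Mest were 2.19% higher and 2.31% lower. They were 2.38% and 2.50% with Lep, 1.76% and 1.52% with Npr3, and 0.627% and 0.411% with Sfrp5. Ucp1 had r of 0.02 with Mest and 0.07 with Lep, and did not pass.

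Markers of other cells moved with the members. Of 9 macrophage genes, 8 rose with Lep and with Mest, 7 with Npr3, 5 with Nnat, 2 with Sfrp5 and 1 with Bmp3, and none fell. Over all transcripts, 2.38% rose with Lep, 2.19% with Mest and 1.76% with Npr3. For Nnat, Sfrp5 and Bmp3 these shares were 1.17%, 0.627% and 0.855%. Itgax, with a mean of 7.75 units below background, had r = 0.72 with Mest (adjusted p = 0.000185). The mean of the list ran from 8.71 units in BXD48 to 10.53 in BXD61, and its r was 0.66 with Lep and 0.51 to 0.70 with the members. With this mean as a further covariate, a model chosen after the data were seen, 2 of 5 members passed with Lep, Npr3 (partial r 0.87) and Mest (0.68), and none of the 10 pairs passed in limma, against 7 at an unadjusted p under 0.05. Partial r with Lep was then 0.58 for Nnat, 0.40 for Sfrp5 and 0.34 for Bmp3. The part of macrophage RNA in these relations was not tested further. In pooled tissue, a different number of cells of a type and a different amount of RNA per cell cannot be told apart.

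The shares of all transcripts given with the macrophage genes apply to the fibroblast and endothelial lists as well. Of 10 genes of preadipocytes and fibroblasts, 7 rose with Bmp3, 6 with Lep, 6 with Mest, 3 with Npr3, 2 with Sfrp5 and 1 with Nnat. The list mean ran from 10.60 units in BXD48 to 11.81 in BXD61, with r of 0.73 for Bmp3, 0.53 for Lep and 0.30 to 0.48 for the other members. Fbn1, which encodes fibrillin, had r = 0.68 with Bmp3 (slope 1.41 ± 0.25, adjusted p = 0.0023). With the list mean as a covariate, the r of Bmp3 with Lep was 0.29 and no longer passed (adjusted p = 0.473), the other 4 members still passed, and 5 of 10 pairs did. Of 7 endothelial genes, 3 rose with Npr3, 2 with Lep and 2 with Mest, 1 with Nnat and none with Sfrp5 or Bmp3. With the endothelial mean as a covariate all 5 members still passed with Lep. The pairs of Npr3 with Nnat (partial r 0.53, adjusted p = 0.0859) and with Sfrp5 (0.49, adjusted p = 0.114) then lost their calls. That of Nnat and Bmp3 gained one (adjusted p = 0.0489). The part of fibroblast and endothelial RNA was not tested further.

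Skeletal muscle genes passed with none of the 6 genes, yet the r of their mean was 0.49 with Sfrp5 and 0.44 with Bmp3, against 0.04 to 0.25 for the others. With the muscle mean as a covariate all 5 members still passed with Lep, and 6 of 10 pairs passed. Both lost pairs were of Sfrp5, with Bmp3 (partial r 0.53, adjusted p = 0.101) and with Npr3 (partial r 0.60, adjusted p = 0.0504). None of the liver, lymphocyte, blood, neuron or adrenal genes passed with any member or with Lep, and the r of these list means ran between -0.21 and 0.29. Of 7 Schwann cell genes, S100b, which fat cells also express, rose with Lep, Mest and Npr3 (r = 0.64, 0.58 and 0.60). Over all transcripts, the share that rose ran from 0.627% with Sfrp5 to 2.38% with Lep. The share that fell ran from 0.170% with Bmp3 to 2.50% with Lep. At such shares, the lack of a call in a list this short is no result about its genes.

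**Figure D5:**
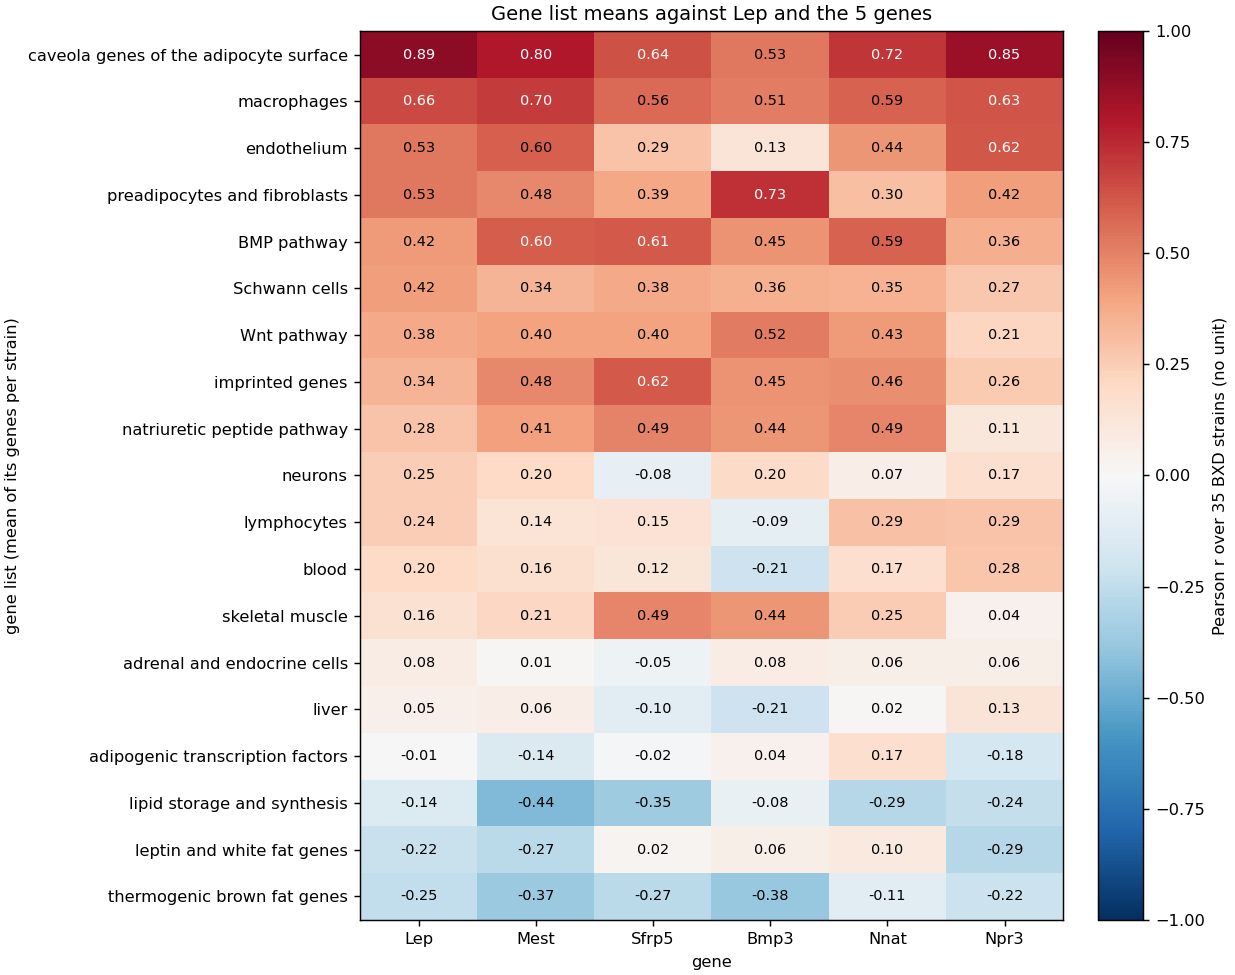
Pearson r over 35 BXD strains between the mean of each gene list per strain (rows, ordered by r with Lep) and Lep or each of the 5 genes (columns), on a colour scale from -1 to 1 (no unit). The caveola and macrophage lists are positive in every column. So are the Wnt, BMP, natriuretic peptide, imprinted, skeletal muscle, endothelial, fibroblast and Schwann cell lists. The list of preadipocytes and fibroblasts peaks at 0.73 with Bmp3. Both the thermogenic list and that of lipid storage and synthesis are negative in every column.

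The genes whose pattern was most like each member were taken over the 35 strains among 13523 other genes with a mean above background. For Mest they were Kirrel (r = 0.87, adjusted p = 3.6e-07), an adhesion protein, then Mycbp2 (0.84), Apol6 (0.84), 1700047G03Rik (0.83) and Lep (0.83). The most opposed were Stxbp2 (-0.84), which acts in vesicle fusion, 4930420K17Rik (-0.83) and Mpzl2 (-0.81). For Npr3, Lep (0.92) was followed by 1700047G03Rik (0.88), the spectrin gene Spna2 (0.83), the caveola ATPase gene Ehd2 (0.82) and the chemokine gene Ccl2 (0.82), and opposed by Stxbp2 (-0.85), Sidt2 (-0.80) and 2010011I20Rik (-0.80). The lncRNA 1700047G03Rik and Stxbp2 thus stood at the ends of both lists.

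For Sfrp5, Crtac1 was followed by Dock11 (r = 0.77, adjusted p = 0.00071), Mest (0.75), the adenylate cyclase gene Adcy5 (0.74) and Nnat (0.73), with Mpzl2 (-0.74), Abcc4 (-0.72) and Khdrbs3 (-0.72) opposed. For Nnat, gamma-synuclein (Sncg, r = 0.81, adjusted p = 2.5e-05) came before Fzd4 (0.76), gelsolin (Gsn, 0.75), Itga7 (0.74) and Lmo4 (0.74), with Zc3h14 (-0.80), Parp6 (-0.79) and Snap29 (-0.78) opposed. For Bmp3 the first 5 were the matrix protease gene Adamts5 (r = 0.81, slope 1.26 ± 0.16, adjusted p = 5.8e-05), Igfbp5 (0.78), Ccdc80 (0.76), the collagen receptor gene Ddr2 (0.75) and the mesenchymal homeobox gene Prrx1 (0.75), opposed by Sephs2 (-0.75), Pctp (-0.69) and Pex6 (-0.68). No other member and not Lep was among the first 5 of Bmp3 or of Nnat.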

How the data were processed

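A single table held 41345 probe sets for 37 Affymetrix arrays, 35 of BXD strains and 2 of parents, and every column was used. The deposited values are scores, in which the authors had fixed the mean at 8 and the SD at 2 within an array, a step that can stretch or shrink differences. The submitters' processing notes name the Affymetrix Expression Console, and the summary method, background correction and log base are not given in the sources used here. Log2 values had been assumed when the tests were designed, and the scores were used as they are. Columns were assigned to strains by name.

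The 190 array controls were left out, which leaves 41155 probe sets. Each of the 6 genes was fitted as a continuous covariate against all other probe sets with limma 3.58.1 (lmFit and eBayes) in R 4.3.3, with Benjamini-Hochberg adjustment over all of them and a threshold of 0.05, and again with Lep as a second covariate. The fit with Mest as the covariate was also run on simulated data with known slopes, in which the noise of transcripts was independent, unlike in real arrays. Permutation p-values are two-sided. The rest was done in Python 3.11.15 with pandas 2.3.3, scipy 1.17.1 and numpy 2.4.6, and figures with matplotlib 3.10.9. Arrays give no read depth, and precision is limited by how many there are and by background.

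The members and the gene lists were chosen with earlier results of these data known. Named genes are the members, Lep, list genes, and for each member the 5 genes of highest and the 3 of lowest r above background. Of the listed genes, 1 thermogenic and 1 blood gene were not matched by symbol. RefSeq gene order and start regions are those of GRCm38.p6.

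The alternatives were both parents included, quantile normalization, centring on the median, a covariate (the skeletal muscle mean, the thermogenic mean or principal component 1), averaging all probe sets of a gene, ranks of the covariate, dim probe sets left out, the 2 farthest strains left out, a threshold of 0.01 and each strain left out in turn. The macrophage, fibroblast and endothelial means as covariates were chosen after the data were seen. For the levels, the range without its end strains and the 99th percentile of background were also taken. Strain genotypes were not analysed here.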

Additional observations from a re-analysis of the deposited data

How the results depend on the processing

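All 15 relations kept a positive r under every alternative. The number of members that passed with Lep was 5 or 4 under every alternative but the macrophage mean as a covariate, where it was 2. It was 4, without Bmp3, with the first principal component, without the 2 farthest strains, at a threshold of 0.01 and with the fibroblast mean, and from 4 to 5 when each strain was left out in turn. Of the 175 values of r with Lep with 1 strain left out, 1 lost its call, Bmp3 without BXD61 (r = 0.50, adjusted p = 0.0536).

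The number of pairs that passed, 8 of 10, fell to 4 without the 2 farthest strains, to 5 at a threshold of 0.01, to 0 with the macrophage mean (limma) and to 5 with the fibroblast mean, and ran from 6 to 9 under the others and when each strain was left out. Leaving out BXD61 alone cost the pair of Sfrp5 and Bmp3 its call (r = 0.56, adjusted p = 0.0770). That pair also lost it with principal component 1 (limma adjusted p = 0.0791), ranks of Sfrp5 (0.0588) and the fibroblast mean (0.159). Mest and Bmp3 lost theirs with the thermogenic mean (limma adjusted p = 0.0584) and the fibroblast mean (0.358). The pair of Sfrp5 and Npr3 lost its call without any one of 20 strains, and the pair of Bmp3 and Nnat gained one without any one of 10. Beside Lep no pair passed under any alternative.

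Counts of transcripts moved more than the relations. With Sfrp5, 427 passed, against 55 without BXD61, 843 without BXD84, 19 without the 2 farthest strains, 77 with the muscle mean, 52 with the first principal component and 1086 among bright probe sets only. With Bmp3, 422 passed, against 203 without BXD61, 696 without BXD43 and 0 with the fibroblast mean, and with Nnat 1192, against 463 without BXD61. The count with Sfrp5 also moved by over 1.5 times without BXD69, BXD80, BXD85, BXD89, BXD90, BXD95 or BXD97, that with Bmp3 without BXD79, BXD90 or BXD97, and that with Nnat without BXD66 or BXD89. With the macrophage mean, 97 passed with Lep against 2008, 9 with Mest against 1854 and 35 with Npr3 against 1349. In the same order, 638, 317 and 120 passed with the endothelial mean, and 627, 511 and 483 with the fibroblast mean. The cause was not tested. The range of Nnat was 2.09 units when both of its probe sets were averaged. No paired analysis was possible, since each strain had 1 array and nothing to pair it with. Sfrp5 and Bmp3 lie near background.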
